A study of Mus musculus with 6 samples.

Results

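The potassium channel genes of the mouse were followed through striatal astroglia and the cells purified with them. They were taken as all genes of the deposited count table whose symbol starts with Kcn, and 99 of 32285 genes met this rule. By symbol they comprised 40 voltage-gated channel genes, 15 inward rectifiers, 14 two-pore-domain leak channels (K2P), 8 channels gated by calcium or sodium, 16 auxiliary subunits and 6 others, of which 5 are annotated as RNAs and the other, Kcnrg, encodes no channel pore. All 99 were matched to a gene of the GENCODE M21 annotation (GRCm38).

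Potassium channels let potassium ions pass through the membrane and hold the resting potential of a cell near the equilibrium of that ion. Mature astrocytes have a very negative and steady membrane potential, carried by inward rectifiers and leak channels, and they take up the potassium that active neurons release. Auxiliary subunits form no pore of their own, but change the gating, the calcium sensitivity or the surface transport of the channel they join.

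The libraries were single-cell RNA-seq libraries (10x Chromium, which counts one end of each mRNA with a molecular barcode, the UMI) of striatal cells enriched with magnetic beads against the astrocyte surface antigen ACSA2. The mice were male wild type C57BL/6 animals, with no transgene or treatment in either group, aged postnatal day 3 (P3, 3 libraries) or 3 months (3m, 3 libraries). Each library came from its own preparation, in which several animals were pooled, so p-values measure the spread between pooled preparations. Of 16690 barcodes, 14373 carried the authors' cluster names, and 9992 of these were astroglial, 8874 at P3 and 1118 at 3m.

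UMIs were summed per library over the astroglial cells and scaled to the total of each sum (CPM, the UMIs of a gene per 1000000 UMIs of the sum). These totals were between 22327104 and 30617140 UMIs at P3 and between 1157485 and 1843998 at 3m, so 3 UMIs over a whole age, taken as the lowest measurable level, stood for 0.0387 CPM at P3 and 0.671 CPM at 3m. The 8 astrocyte markers summed to between 5202 and 6278 CPM at P3 and to between 14777 and 15691 CPM at 3m. The 3 cycling markers reached 350 to 455 CPM at P3 and 0.542 CPM at most at 3m, and 8 oligodendrocyte markers reached 6.66 to 7.39 CPM at P3 and 733 to 1935 CPM at 3m. Mitochondrial UMIs made up 1.45 to 2.61% of the astroglial sums at P3 and 6.14 to 8.01% at 3m, which cannot be told apart from age. The share of astroglial cells in sub-clusters taken here as telencephalic was 92.4%, 70.8% and 48.5% in P3 replicates 1, 2 and 3, and 92.0%, 52.2% and 86.1% in 3m replicates 1, 2 and 3. Pairs of libraries shared between 0 and 9 cell barcodes.

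Of the 99 genes, 89 had at least 1 UMI in astroglial cells and 40 passed the filter on low counts. Summed over the protein-coding genes, the Kcn level was 1014, 862 and 900.3 CPM in the P3 libraries and 1656, 1395 and 1480.5 CPM in the 3m libraries. The 3m libraries were thus all above the P3 libraries, and the difference in Kcnk1 alone was larger than the gap between the ages. Kcnk1 made up 6.67%, 6.90% and 7.77% of the summed level at P3 and 60.4%, 38.7% and 54.0% at 3m. The leading genes of P3 took smaller shares at 3m: Kcne1l went from 25.7%, 22.4% and 18.8% to 1.83%, 3.85% and 2.80%, and Kcnk2 from 15.5%, 21.3% and 23.0% to 4.80%, 5.13% and 3.44%.

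The first question of the design was how astroglial expression differed between the young and the adult striatum. A gene was called where edgeR's quasi-likelihood test over all genes gave a Benjamini-Hochberg adjusted p of at most 0.05 and the log2 fold change (3m over P3) was at least 1 in size. Of the 40 Kcn genes tested, 14 were called higher at 3m, 10 were called lower and 16 were neither. Among all 13530 genes tested, 32.1% were called, 15.8% higher and 16.3% lower. The median log2 fold change was 0.21 over the 40 Kcn genes and −0.04 over all genes tested. By family, 5 of 6 calcium- or sodium-activated channels, 6 of 15 voltage-gated channels, 2 of 4 inward rectifiers and 1 of 3 K2P channels were called higher. Called lower were 3 of 9 auxiliary subunits, 2 of 15 voltage-gated channels, 1 of 3 K2P channels, 1 of 4 inward rectifiers, 1 of 6 calcium- or sodium-activated channels and 2 of 3 RNAs. No auxiliary subunit was called higher. Without P3 replicate 1, 2 or 3, when 23 Kcn genes passed the filter, 6 were called lower, and with counts thinned to the smallest library 7 were called higher and 6 lower of 21 tested. The share of all genes called was not computed for these fits. In the main fit, the log2 fold changes of the 16 Kcn genes not called ran from −1.06 (Kcnh2) to 1.92 (Kcns3). The filter on low counts asked for a minimum level in at least 3 libraries, the number of each age, and for a minimum total. Genes could thus pass through 1 age alone. Kcnj6, with 283 UMIs at P3 and 0 at 3m, passed through P3, and Kcnj14, with 7 and 21, passed through 3m. The calls of such genes are not independent of how they passed.

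**Figure D1:**
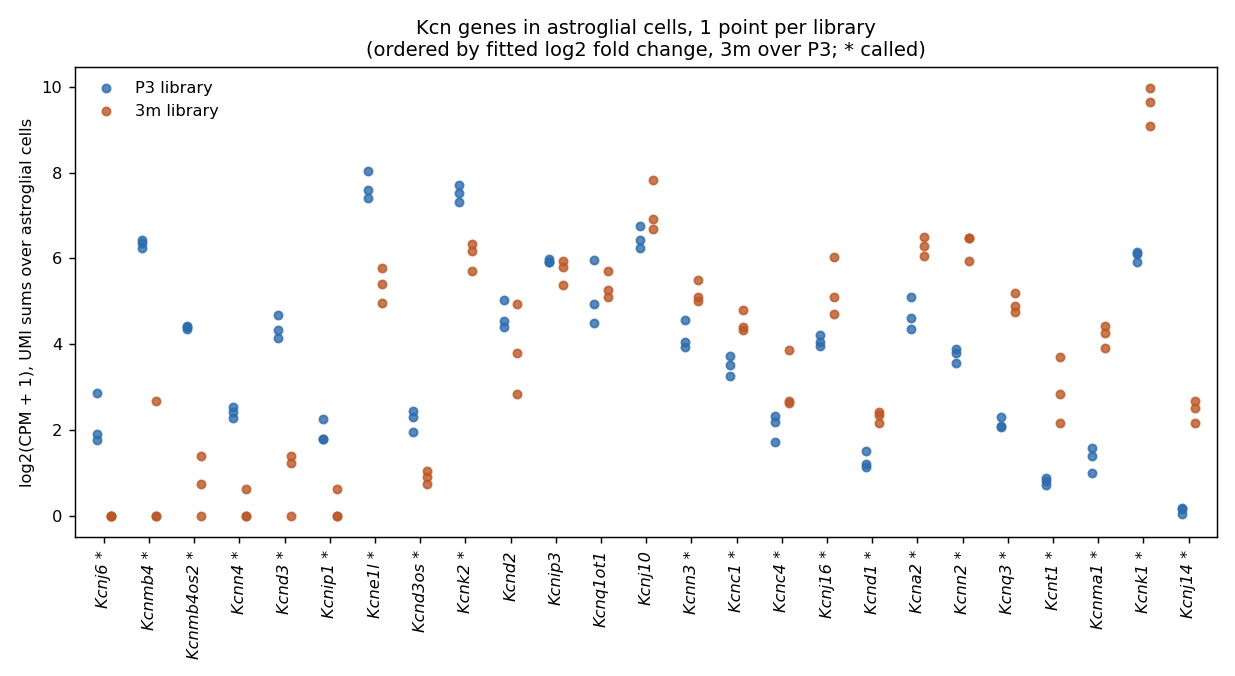
Level of selected Kcn genes tested in astroglial cells, as log2(CPM + 1) of the UMI sum on the vertical axis, with 1 point for each library (3 at P3 and 3 at 3m) and genes ordered by fitted log2 fold change; an asterisk marks a called gene. Kcnk1 stood above every other gene in the 3m libraries, at 540 to 1000.4 CPM, and Kcnmb4 was at 74.8 to 85.0 CPM in the P3 libraries and at 0 to 5.42 CPM in the 3m libraries.

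Kcnk1, a K2P leak channel of weakly rectifying type, lies on chr8:125995170-126030685, plus strand (GRCm38). Its level was 67.6, 59.5 and 70.0 CPM in P3 replicates 1, 2 and 3 and 1000.4, 540 and 799 CPM in 3m replicates 1, 2 and 3. All 3m libraries were above all P3 libraries, and Kcnk1 rose 13.5-fold (log2 fold change 3.75, SE 0.24, edgeR adjusted p = 6.18e-08). The 250 bases before its RefSeq start site (chr8:125994852-125995101, plus strand, GRCm38.p6) are shown because Kcnk1 had the largest share of the adult Kcn level:
Kcnk1: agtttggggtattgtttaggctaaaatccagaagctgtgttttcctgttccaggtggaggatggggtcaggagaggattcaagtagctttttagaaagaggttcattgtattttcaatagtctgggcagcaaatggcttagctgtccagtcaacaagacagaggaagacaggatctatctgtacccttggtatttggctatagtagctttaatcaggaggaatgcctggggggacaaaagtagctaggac
Capitals in the promoter windows mark any of 4 motifs, searched on both strands. The GC box, spelled GGGCGG, was found in 32.7% of 32851 RefSeq windows of that length. The TATA box, with the letters TATAAA, was found in 12.4% of those windows, and the CCAAT box, named by its letters, in 33.8% of them. The half-site of nuclear receptors, AGGTCA, was in 14% of them. The Kcnk1 window held none of the 4 and no CpG dinucleotide, with a GC content of 44.4%, against a median of 6 CpG and 52.4% GC over all windows. This RefSeq start of Kcnk1, at 125995102, lies before the GENCODE start at 125995170. The bases after it were not found in a GENCODE transcript of the gene, so whether the window is the promoter used here was not tested. A match is a run of letters, not a shown binding site.

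Kcnk2, a K2P channel opened by stretch and by lipids, was the second most abundant protein-coding Kcn gene of the P3 astroglia. It was measured at 157, 183 and 208 CPM at P3 and at 79.5, 71.6 and 50.9 CPM at 3m. The groups did not overlap, and Kcnk2 fell by 1.26 on the log2 scale (SE 0.19, edgeR adjusted p = 0.000141). In telencephalic sub-clusters alone the fall was 0.83 on the log2 scale and was not called for its size. Kcnk10, its close relative, was at 31.4, 20.7 and 23.3 CPM at P3 and at 19, 14.1 and 29.9 CPM at 3m, with overlapping groups (edgeR adjusted p = 0.836). The other 11 K2P genes did not pass the filter.

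Inward rectifiers pass potassium more readily into the cell than out of it. Kcnj10, the main inward rectifier of astrocytes, was at 107, 74.6 and 85.4 CPM in the P3 libraries and at 101, 226 and 119.5 CPM in the 3m libraries. P3 replicate 1 lay above 3m replicate 1, and 3m replicate 2, the adult library with the lowest telencephalic share, was the highest. The log2 fold change of 0.95 (SE 0.26, edgeR adjusted p = 0.00827) missed the fold required for a call. Without 3m replicate 2 it was 0.45, and it was called without P3 replicate 1 (1.12), without 3m replicate 1 (1.12) or without 3m replicate 3 (1.03). Oligodendrocytes also held Kcnj10, and without the astroglial cells richest in oligodendrocyte markers the log2 fold change was 0.88.

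Kcnj16, whose product forms mixed channels with that of Kcnj10, was at 15.5, 14.6 and 17.6 CPM at P3 and at 25.1, 64.5 and 33.3 CPM at 3m. Its groups did not overlap, 3m replicate 2 was again the highest, and Kcnj16 rose 3.04-fold (log2 fold change 1.60, SE 0.27, edgeR adjusted p = 0.00031). Without 3m replicate 2 its log2 fold change was 1.03, still a call. Kcnj14, another inward rectifier, was low at both ages, with 7 UMIs over the P3 libraries and 21 over the 3m libraries, which correspond to 0.134, 0.0327 and 0.122 CPM at P3 and 3.46, 5.42 and 4.75 CPM at 3m. It was called higher at 3m (log2 fold change 5.73). Kcnj6, a rectifier opened by G proteins, went the other way: it was at 6.32, 2.42 and 2.77 CPM at P3, and none of the 3m libraries held a UMI of it (283 UMIs against 0). Set against 3 UMIs over the 3m group, Kcnj6 was at least 5.44-fold lower at 3m, and it was called lower.

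The windows before the first start sites of Kcnj10 (chr1:172340960-172341209, plus strand) and Kcnj16 (chr11:110967783-110968032, plus strand), both GRCm38.p6, are shown because the products of these genes assemble with each other and both levels were highest in adult sub-clusters 13 and 16:
Kcnj10: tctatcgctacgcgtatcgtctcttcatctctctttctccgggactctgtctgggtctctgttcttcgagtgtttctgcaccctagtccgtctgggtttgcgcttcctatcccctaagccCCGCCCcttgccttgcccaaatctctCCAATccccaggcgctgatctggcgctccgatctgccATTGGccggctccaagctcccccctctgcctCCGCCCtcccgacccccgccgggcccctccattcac
Kcnj16: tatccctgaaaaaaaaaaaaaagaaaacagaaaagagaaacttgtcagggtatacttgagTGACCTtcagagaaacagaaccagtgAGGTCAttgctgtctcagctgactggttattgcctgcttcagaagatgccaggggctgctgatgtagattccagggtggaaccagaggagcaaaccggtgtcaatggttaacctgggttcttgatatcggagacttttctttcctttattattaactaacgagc
The Kcnj10 window held 17 CpG at 62% GC, with 2 GC boxes and 2 CCAAT boxes. The Kcnj16 window held 3 CpG at 42.8% GC and 2 copies of AGGTCA. None of the 4 motifs was found in both of these windows. Later RefSeq start sites of Kcnj16 are not shown, and the window at 1 of them (chr11:111023610-111023859, plus strand) held 1 GC box and 1 CCAAT box.

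The study placed sub-clusters 3, 4, 5, 10, 12, 13, 15 and 16 with non-telencephalic astrocytes of a reference atlas. All other sub-clusters were taken here as telencephalic, from the part of the brain that includes the striatum. They include the cycling sub-clusters 6 and 8, which held P3 cells only. The P3 sums of the 2 regions thus also differ in cycling cells, whose part in the P3 levels was not tested. Since sub-clusters were made from the same counts, the levels between regions are a description with no test. Kcnj10 in telencephalic cells was at 109, 78.7 and 89.9 CPM in the P3 libraries and at 69.3, 78.4 and 72.5 CPM in the 3m libraries. In non-telencephalic cells it was at 74.4, 58.4 and 74.5 CPM at P3 and at 389 and 373 CPM in 3m replicates 2 and 3. Adult Kcnj10 was thus several times higher outside the telencephalon, while at P3 it was higher inside the telencephalon in each library. 3m replicate 1 held only 17 non-telencephalic cells, fewer than the 20 required for a value of its own, though they entered the fit. Within the telencephalic sub-clusters the age difference of Kcnj10 was −0.15 on the log2 scale (SE 0.17, edgeR adjusted p = 0.467), and within the non-telencephalic ones, a fit added after the data were seen, it was 2.99 (SE 0.25). The difference between these 2 values was not tested. Oligodendrocyte markers moved with the region: they summed to 231, 386 and 326 CPM in the telencephalic cells of 3m replicates 1, 2 and 3, to 3653 and 2930 CPM in the non-telencephalic cells of replicates 2 and 3, and to 7.43 CPM at most in either region at P3. The 17 cells of 3m replicate 1 held 23753 CPM of them. Kcnj10 was at 410.5 CPM in the adult astroglial cluster AST_3m_14, and at 168 and 178 CPM in the oligodendrocyte clusters ODC_2 and ODC_10. Single oligodendrocyte markers in AST_3m_14 were at 0.708 to 73.4% of their ODC_2 level. Without the cells rich in those markers, another fit added after the data were seen, the non-telencephalic log2 fold change of Kcnj10 was 2.98. That fit held only 5 cells and 29008 UMIs of 3m replicate 1. The part of oligodendrocyte RNA in the Kcnj10 values was not tested.

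Kcnj16 followed a like pattern of levels. Telencephalic cells held 16, 16.9 and 21.9 CPM at P3 and 24.6, 27.8 and 24.2 CPM at 3m, and non-telencephalic cells held 6.69, 5.53 and 7.22 CPM at P3 and 105 and 82.5 CPM in 3m replicates 2 and 3. The log2 fold change with age was 0.66 in telencephalic sub-clusters, short of the fold for a call, and 4.15 in non-telencephalic ones. Kcnk1 had the opposite order among adult cells: 1045, 864 and 891 CPM in telencephalic cells against 180 and 304 CPM in the non-telencephalic cells of replicates 2 and 3. At P3 the telencephalic cells held less Kcnk1 than the non-telencephalic ones in each library, 65.2, 49.5 and 52.3 CPM against 111, 99.5 and 113 CPM. The part of the cycling sub-clusters, all counted as telencephalic, in this P3 order was not tested. Kcnk1 was called higher at 3m in each region, by 4.25 and 1.41 on the log2 scale. Kcnk2 was called lower in non-telencephalic cells, where it fell by 2.31 on the log2 scale, from 383, 424 and 366 CPM at P3 to 70.9 and 43.4 CPM in 3m replicates 2 and 3.

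Fitted on telencephalic sub-clusters alone, 34 Kcn genes were tested, of which 14 were called higher and 11 lower, where 34.4% of all genes tested were called. Fitted on non-telencephalic sub-clusters alone, 18 were tested, of which 12 were called higher and 6 lower, where 29.5% of all genes tested were called. These sums were small, and genes low at P3 passed the filter only through the 3m libraries. Among them were Kcnt1, at 0 to 1.14 CPM in the P3 libraries, and Kcnma1, at 0 to 0.836 CPM. The number of calls there thus follows in part from which genes passed. Without the cells rich in oligodendrocyte markers 10 were called higher and 6 lower of 16 tested in the non-telencephalic sub-clusters. The share of all genes called in that fit, which held 5 cells of 3m replicate 1, was not computed. Fewer UMIs of a gene in a sum over sub-clusters can come from fewer cells that hold it or from less RNA per cell, and the sums do not tell these apart.

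**Figure D2:**
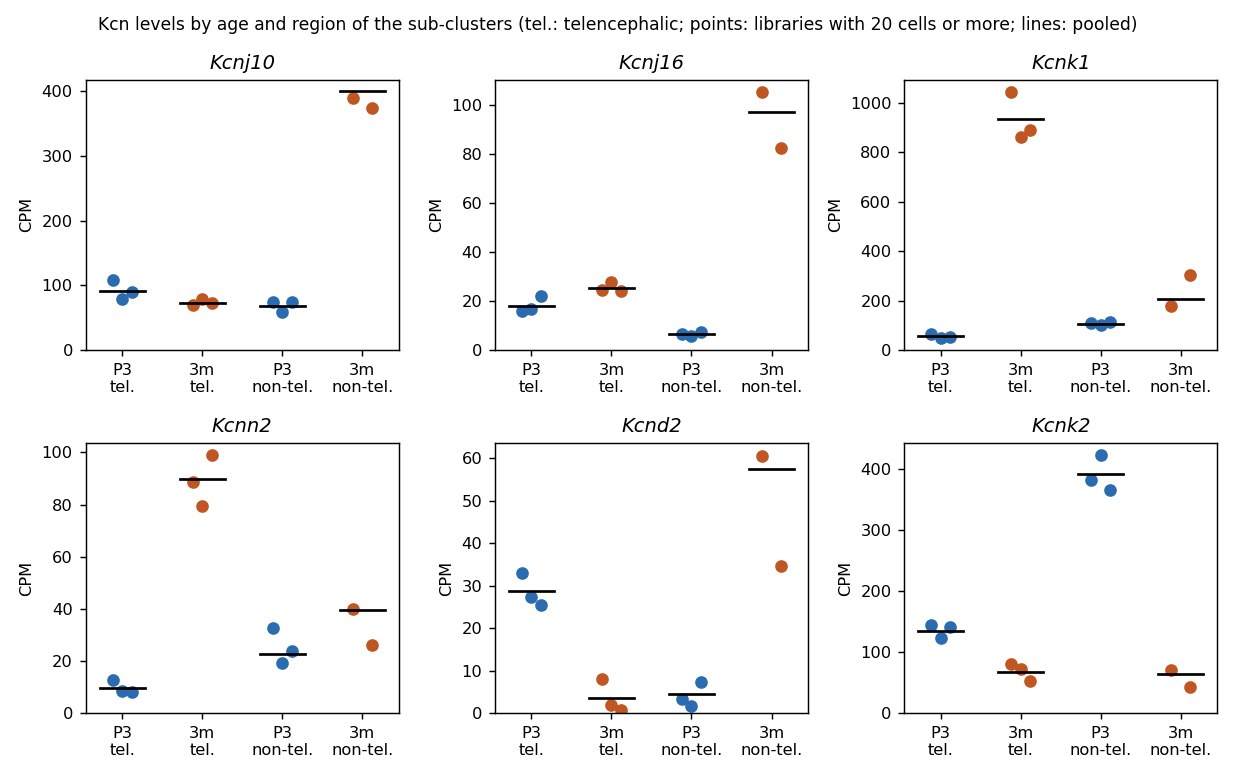
Levels in CPM (vertical axes, from 0) of Kcn genes in telencephalic (tel.) and non-telencephalic (non-tel.) astroglial sub-clusters at P3 and 3m; points are libraries with at least 20 such cells and lines are the pooled level. Adult Kcnj10 was at 69.3 to 78.4 CPM in telencephalic and at 373 to 389 CPM in non-telencephalic cells, and Kcnk1 had the opposite order.

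Of the calcium- and sodium-activated channels, all 6 that passed the filter were called, 5 of them higher at 3m. Kcnn2, a small-conductance channel opened by calcium, was at 13.8, 10.7 and 12.9 CPM in the P3 libraries and at 88.1, 60.7 and 87.6 CPM in the 3m libraries. No 3m library came near a P3 library, and Kcnn2 rose by a log2 fold change of 2.84 (SE 0.19, edgeR adjusted p = 8.61e-08). In adult cells its level was higher in the telencephalic sub-clusters (88.5, 79.4 and 99.0 CPM) than in the non-telencephalic ones (40.0 and 26.0 CPM in replicates 2 and 3), and at P3 the order was the reverse, 12.7, 8.58 and 8.34 CPM against 32.6, 19.4 and 23.9 CPM. The part of the cycling sub-clusters in the P3 order of Kcnn2 was not tested. Kcnn3, a relative of Kcnn2, was at 22.5, 14.4 and 15.6 CPM at P3 and at 44.1, 30.9 and 33.3 CPM at 3m, again with no overlap (log2 fold change 1.22, SE 0.21, edgeR adjusted p = 0.000423).

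Kcnma1, the pore of the large-conductance calcium- and voltage-gated channel, was at 2.02, 1.01 and 1.63 CPM at P3 and at 18.1, 14.1 and 20.4 CPM at 3m (log2 fold change 3.70, SE 0.33, edgeR adjusted p = 1.28e-06). Kcnt1, a channel opened by sodium, was at 0.851, 0.751 and 0.651 CPM at P3 and at 3.46, 11.9 and 6.11 CPM at 3m, with 3m replicate 2 highest (log2 fold change 3.51, and 2.82 without that library). By region the log2 fold change of Kcnt1 was 2.31 in telencephalic and 5.04 in non-telencephalic sub-clusters, and the difference was not tested. Each of these genes was higher in 3 of 3 adult libraries than in any P3 library. Kcnn1 was called higher at low levels (log2 fold change 1.19, edgeR adjusted p = 0.0398). Kcnn4, the intermediate-conductance channel of the family, was called lower: 340 UMIs were counted at P3 and 1 at 3m (in replicate 2), a ratio of 19.6 with a 95% counting interval from 3.50 to 777.

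Of the auxiliary subunits, Kcne1l, Kcnip1 and Kcnmb4 were called lower. Kcne1l, a single-span subunit of voltage-gated channels also known as Kcne5, lies on chrX:142304752-142306294, minus strand. With 261, 193 and 169 CPM it was among the most abundant Kcn genes at P3, and the 3m libraries held 30.2, 53.7 and 41.4 CPM. The groups lay far apart, and Kcne1l fell by 2.10 on the log2 scale (SE 0.24, edgeR adjusted p = 1.14e-05). It was called lower in each region, by 2.33 in telencephalic and 1.36 in non-telencephalic sub-clusters. Kcnip1, a calcium-binding partner of A-type channels, was called lower on 224 UMIs at P3 and 1 at 3m (in replicate 2), a ratio of 12.9 with a 95% counting interval from 2.30 to 513. Kcnip3, of the same partner family, was at 62.7, 59.2 and 59.3 CPM at P3 and at 40.6, 60.7 and 55.0 CPM at 3m, with overlapping groups and a log2 fold change of −0.01 (edgeR adjusted p = 0.984).

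Kcnmb4, the beta subunit that Kcnma1 channels carry in the nervous system, was at 80.8, 85.0 and 74.8 CPM at P3. At 3m it was at 0, 5.42 and 0 CPM, so that 6245 UMIs stood against 10, all of them in replicate 2. Kcnmb4 fell by 4.99 on the log2 scale (SE 0.48, edgeR adjusted p = 2.68e-06). Without 3m replicate 2 no adult UMI was left, and the fitted fall of 13.3 then depends on how a count of 0 is handled, but it was still called. Its partner pore Kcnma1 was called in the other direction. The RNA Kcnmb4os2, whose RefSeq start is 360 bases from that of Kcnmb4 and which runs on the other strand (chr10:116473163-116475319, plus strand), was at 20.1, 20.6 and 19.5 CPM at P3 and at 0, 1.63 and 0.679 CPM at 3m, and it fell by 4.29 on the log2 scale (SE 0.44). Whether the counting used the strand is not given in the sources used here, so where the 2 genes overlap their reads may not be separated. The window before Kcnmb4os2 (chr10:116472913-116473162, plus strand, GRCm38.p6) is shown because it lies inside the Kcnmb4 transcript, near the RefSeq start of that gene:
Kcnmb4os2: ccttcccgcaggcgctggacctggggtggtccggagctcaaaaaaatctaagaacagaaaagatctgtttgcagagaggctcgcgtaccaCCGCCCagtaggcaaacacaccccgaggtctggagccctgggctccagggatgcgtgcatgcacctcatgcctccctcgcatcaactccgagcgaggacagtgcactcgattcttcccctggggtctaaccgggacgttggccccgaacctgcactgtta
It held 15 CpG at 60% GC and 1 GC box. The window before Kcnmb4 itself, which overlaps an annotated untranslated region and is not printed, held 43 CpG at 83.6% GC.

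Voltage-gated channels open on depolarization and differ in speed and threshold. Kcnq3, a subunit of the slow current that muscarinic receptors close, had the largest called rise among the voltage-gated genes tested: it was at 3.94, 3.30 and 3.21 CPM at P3 and at 25.9, 28.7 and 35.3 CPM at 3m (log2 fold change 3.30, SE 0.22, edgeR adjusted p = 1.22e-07). Kcna2, a delayed rectifier known from axons, was at 33.4, 19.5 and 23.5 CPM at P3 and at 89.0, 65.1 and 76.7 CPM at 3m (log2 fold change 1.78, SE 0.20, edgeR adjusted p = 1.16e-05). All 3m libraries were above all P3 libraries for each gene. Both genes were also found in oligodendrocytes, whose markers were higher in the 3m astroglial sums. In the adult astroglial cluster AST_3m_5 the oligodendrocyte markers were at 0.166 to 3.47% of their level in the oligodendrocyte cluster ODC_2, Kcna1, the leading Kcn gene of oligodendrocytes, at 0.244%, and Kcnq3 at 50.7% and Kcna2 at 210% of theirs. In the other adult astroglial cluster, AST_3m_14, the markers summed to 4765 CPM, against 315 CPM in AST_3m_5 and 37829 CPM in ODC_2, and single markers were at 0.708 to 73.4% of their ODC_2 level. There Kcna1 was at 0.742%, Kcnq3 at 44.1% and Kcna2 at 170% of theirs. Without the cells rich in those markers the log2 fold changes were 3.29 for Kcnq3 and 1.81 for Kcna2. The part of oligodendrocyte RNA in the values of these 2 genes was not tested.

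Kcnc1, a fast delayed rectifier, was at 12.3, 8.62 and 10.4 CPM at P3 and at 26.8, 20.1 and 19 CPM at 3m (log2 fold change 1.25). Kcnc4 and Kcnd1 were called higher at lower levels, by 1.57 and 1.66 on the log2 scale, and Kcnc4 was not called without 3m replicate 2. Kcnd3, a pore of the fast A-type current, fell by 3.98 on the log2 scale (SE 0.47, edgeR adjusted p = 1.52e-05), from 24.6, 19.2 and 16.6 CPM at P3 to 0, 1.63 and 1.36 CPM at 3m. The RNA Kcnd3os, which overlaps it on the other strand, fell by 1.88 (edgeR adjusted p = 0.0169), and the call was lost without 3m replicate 3.

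The other A-type pore, Kcnd2, gave no call over all astroglia: 31.4, 22.2 and 20.2 CPM at P3 overlapped with 13, 29.8 and 6.11 CPM at 3m (log2 fold change −0.33, edgeR adjusted p = 0.483). Without 3m replicate 2 it was called lower, at −1.28. Within telencephalic sub-clusters the libraries did not overlap, with 33.0, 27.4 and 25.5 CPM at P3 and 8.21, 2.06 and 0.805 CPM at 3m, and Kcnd2 fell by 2.80 on the log2 scale. Within non-telencephalic sub-clusters it was at 3.34, 1.79 and 7.36 CPM at P3 and at 60.6 and 34.7 CPM in 3m replicates 2 and 3, and it rose by 3.99. Without cells rich in oligodendrocyte markers, which left 5 cells in 3m replicate 1, the non-telencephalic rise was 4.09. Kcna6 had the same pair of directions, −1.38 and 2.66, and oligodendrocytes held it too. Among the RNAs that code for no channel, Kcnq1ot1, the paternally expressed antisense RNA of the Kcnq1 locus, was at 61.1, 21.4 and 29.7 CPM at P3 and at 51.0, 33.1 and 37.4 CPM at 3m, and it was not called.

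Genes that work beside potassium channels were followed through a list of 33 transporters, pumps and partner subunits. In the astroglial comparison 22 of the 33 were tested, of which 8 were called higher and 3 lower, or 36.4% and 13.6%, where 15.8% and 16.3% of all genes tested were. Called higher were Atp1b2, a subunit of the sodium-potassium pump, and Fxyd1, a regulator of that pump, by 2.13 and 2.04 on the log2 scale, and the potassium-chloride cotransporter Slc12a4 by 1.03. Also called higher were Hcn2, a cation channel opened by hyperpolarization (3.54), the kinase Wnk2 (1.91) and the lysosomal channel Tmem175 (1.23). Called lower were Fxyd6, another pump regulator, by −5.79, Dpp6, an auxiliary subunit of A-type channels, by −2.29, and the kinase Stk39 by −1.01.

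In astroglia 59 members were not tested, and the highest of their mean levels at either age was 2.88 CPM, that of Kcng4. Kcng4, which modifies other voltage-gated subunits, had no UMI in any P3 library and 2, 4 and 7 UMIs in the 3m libraries. Its pooled 3m level was 75.1-fold the floor of 3 UMIs over the P3 group, a ratio that leaves out the counting error of the few 3m UMIs. Kcng4 is named here after its values were seen. Another 10 genes had no UMI in any astroglial cell, namely Kcna7, Kcne3, Kcng3, Kcnh1, Kcnj1, Kcnj15, Kcnk15, Kcnk16, Kcnk18 and Kcnmb4os1. A count of 0 over the 3m cells still allows up to 0.671 CPM.

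The authors ordered the astroglial cells by a pseudotime score, divided into bins. Bins 2 to 14 held P3 cells apart from 4 cells of 3m, and bins 16 to 19 held 3m cells, so position and age cannot be told apart between these ranges. The score was computed from the same counts, and the levels along it are a description. Within the P3 bins, Kcnk1 was at 30.8 CPM in bin 3 (library range 28.7 to 31.7) and at 91.6 CPM in bin 14 (77.8 to 113), and in the 3m bins it went from 478.5 CPM in bin 16 to 1218 CPM in bin 19. Kcnn2 went from 1.90 CPM in bin 3 to 17.9 CPM in bin 14 and was at 86.3 CPM in bin 16. Kcna2 went from 7.12 to 41.2 and then 90.2 CPM in the same bins. These 3 genes thus had higher levels late in the P3 range than early in it, below those of the adult bins.

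Among P3 bins, 3 genes were highest late in the range. Kcne1l was at 38.0 CPM in bin 3 (31.4 to 43.3), at 325 CPM in bin 14 (264 to 406) and at 43.1 CPM in bin 16. Kcnk2 was at 55.0 CPM (45.2 to 59.6), 219 CPM (208 to 231) and 86.3 CPM in these bins. Kcnj10 was at 45.1 CPM in bin 3, at 117 CPM in bin 14 (113 to 123), at 110 CPM in bin 16 and at 70.1 CPM in bin 17. Kcnmb4 differed from them in that it was level across the P3 range, with 80.2 CPM in bin 3, 80.4 CPM in bin 10 and 89.3 CPM in bin 14, and was at 0 CPM in bin 16. Bin 15, with 9 cells of P3 and 22 of 3m, lay between for Kcnk1, at 143 CPM.

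**Figure D3:**
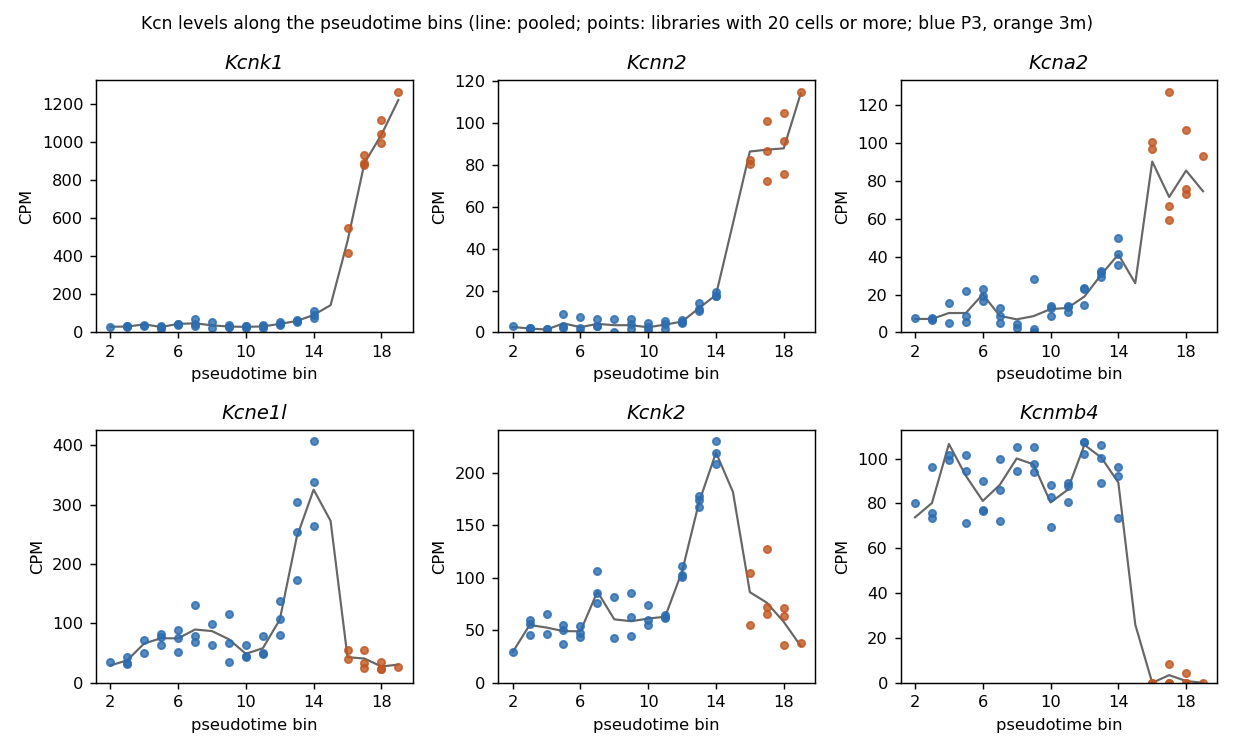
Levels in CPM (vertical axes, from 0) of Kcn genes along the bins of the authors' pseudotime score (horizontal axes, no unit); the line is the pooled level and points are libraries with at least 20 cells in the bin. Kcne1l and Kcnk2 peaked late in the P3 bins, at 325 and 219 CPM in bin 14, while Kcnk1 reached 1218 CPM in bin 19.

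Among the astroglial sub-clusters, adult sub-clusters 13 and 16 held the most Kcnj10, at 413 and 382 CPM, against 75.1 CPM in sub-cluster 7 and 69.1 CPM in sub-cluster 14. Kcnk1 was at 245 and 80.4 CPM in the former pair and at 880 and 1048 CPM in the latter. Of the 184 cells of sub-cluster 14, 182 came from 3m replicate 1, and of the 1211 cells of sub-cluster 1, 1156 came from P3 replicate 1. Kcnk2 was highest in the P3 sub-clusters 3, 5 and 10, at 491, 410.4 and 366 CPM, against 198 CPM in sub-cluster 0 and 59.1 CPM in sub-cluster 6. Kcnmb4 was lowest among the P3 sub-clusters in sub-cluster 10, at 1.21 CPM.

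Across all cell types, 93 of the 99 genes had a UMI in the annotated cells, and 41 were below 20 UMIs in every cluster. For each of the other 58, only clusters with at least 20 UMIs of the gene were ranked. By this rule 15 were highest in a P3 astroglial cluster, 8 in the endothelial cluster END_7, 7 in a 3m astroglial one, 6 in oligodendrocytes, 5 each in oligodendrocyte precursors and pericytes, 4 each in glial progenitors and neurons, 3 in unidentified clusters and 1 in microglia. Small clusters with higher levels can be left out by it. Kcnd1 was counted for AST_P3_0 at 2.35 CPM, while microglia held 10.0 CPM at P3 and 23.5 CPM at 3m. Clusters were made from these counts, so levels between them carry no test.

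**Figure D4:**
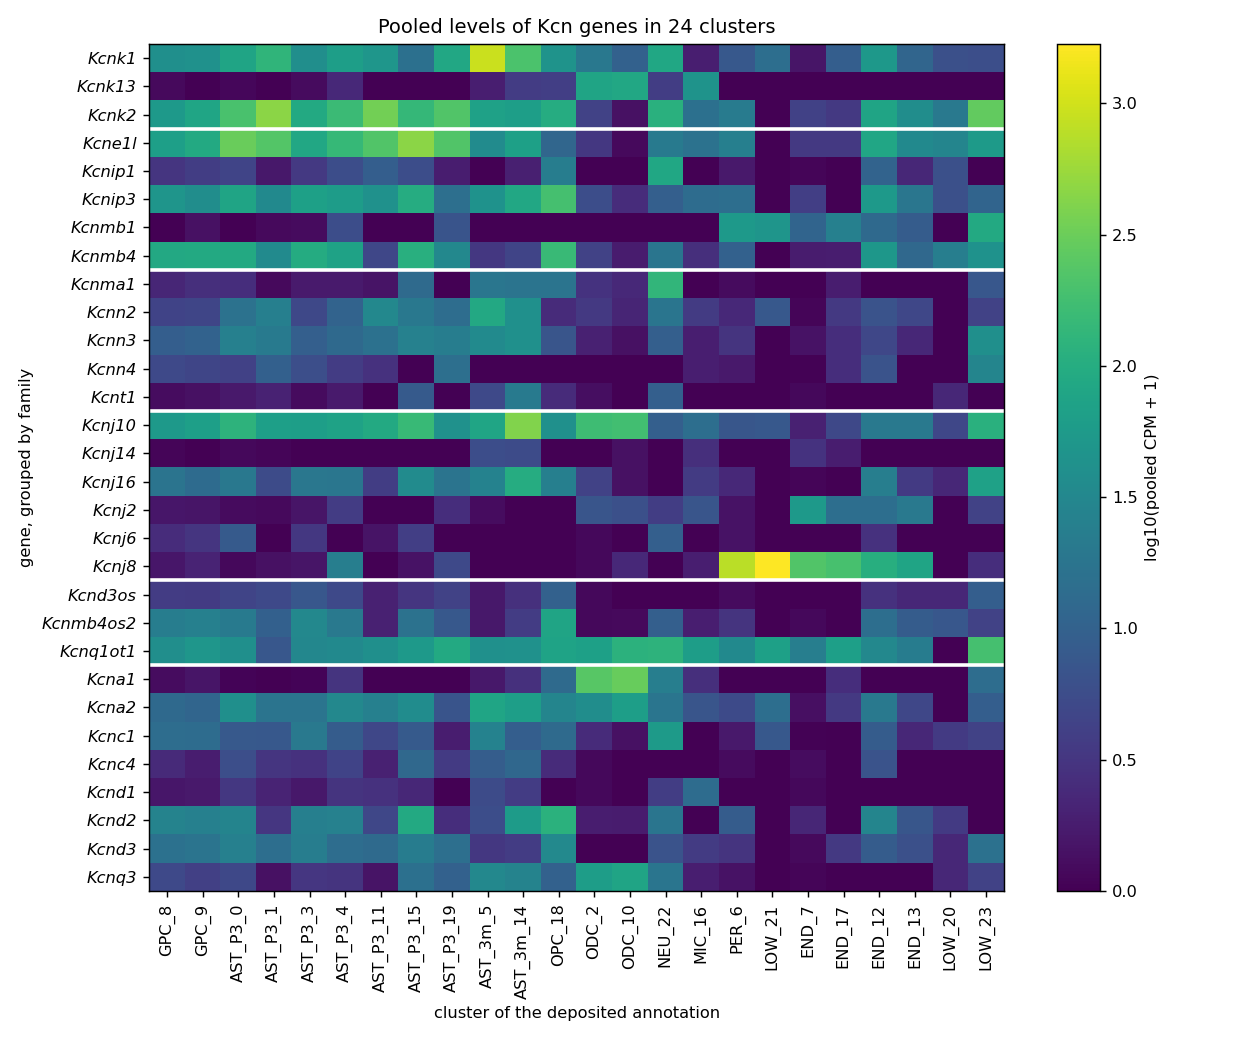
Pooled level of selected Kcn genes as log10(CPM + 1) (color) in the clusters of the deposited annotation (horizontal axis), with genes grouped by family (vertical axis). Kcnj8 stood out in the pericyte cluster PER_6 and in LOW_21, at 773 and 1684 CPM, and Kcna1 in the oligodendrocyte clusters, at 269 CPM over the class.

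Oligodendrocytes, the myelin-forming cells, held mainly voltage-gated subunits. Kcna1, a low-threshold subunit known from myelinated axons, was at 269 CPM (library range 239 to 299), Kcna6 at 64.4 CPM (60.8 to 67.9) and Kcnq3 at 67.6 CPM (46.5 to 79.3). Kcnj10 reached 173 CPM (165 to 178), above its level in telencephalic astroglia of the same age and below that in non-telencephalic ones. Kcnk13, a leak channel that some lipids open and halothane closes, was at 80.6 CPM (69.0 to 91.3). Oligodendrocyte precursors differed from these cells in their leading genes, with Kcnip3 at 189 CPM (142 to 200), Kcnmb4 at 153 CPM, Kcnd2 at 114 CPM and Kcnk2 at 99.2 CPM.

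In mural cells, the contractile cells around vessels, Kcnj8 led. Kcnj8 encodes the pore of the vascular ATP-sensitive channel and Abcc9 its regulatory subunit. Kcnj8 was at 773 CPM (558 to 1063) and Abcc9 at 410.0 CPM in the pericyte cluster PER_6, and the unidentified cluster LOW_21 held 1684 CPM (967 to 2003) and 998 CPM. Kcnmb1, the smooth muscle beta subunit, was at 53.2 CPM and Kcne4 at 26.2 CPM in PER_6. Kcnmb1 was higher, at 90.7 CPM, in the unidentified cluster LOW_23, whose multiciliated markers summed to 9160 CPM. The endothelial cluster END_7 held Kcnj8 at 224 CPM (172 to 266), which was 29.0% of the PER_6 level, while pericyte markers there were at 12.3 to 30.1% of their PER_6 level and smooth muscle markers at 0.854 to 8.41%. The part of pericyte RNA in the END_7 value was not tested. Kcnj2, a strong inward rectifier known from brain capillaries, was at 53.3 CPM (45.6 to 60.9) in END_7 and at 0.456 CPM in PER_6, and at 13.7 CPM in the adult endothelial cluster END_17. Kcnq1, Kcna5 and Kcng2 were at 18.5, 18.1 and 17.7 CPM in END_7. In the astroglial cluster AST_P3_4 Kcnj8 was at 22.7 CPM, 2.94% of its PER_6 level, where pericyte markers stood at 3.13 to 6.50% of theirs.

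Neurons were few, at 53 cells, and only P3 replicate 2 held at least 20 of them. Their sum had Kcnma1 at 131 CPM, Kcnk2 at 111 CPM and Kcnip1 and Kcnk1 at 82.7 CPM each, with no replicate. Microglia, the resident macrophages of the brain, formed 1 cluster that held cells of both ages in every library, but in small numbers, 34, 44 and 46 cells at P3 and 20, 23 and 17 at 3m. Their leading channel gene was Kcnk13, the leak channel through which microglia hold their resting potential. It was at 32.0, 30.4 and 51.8 CPM at P3 and at 69.1, 59.6 and 74.9 CPM at 3m. The libraries of the 2 ages did not overlap, but the log2 fold change of 0.93 (SE 0.43) was not called (edgeR adjusted p = 0.182). Oligodendrocytes also held Kcnk13, and their 8 markers summed to between 0 and 34.5 CPM in the microglia of P3 and to between 169 and 2410 CPM in those of 3m. The part of oligodendrocyte RNA in the Kcnk13 values was not tested. Only 2 Kcn genes passed the filter in microglia, the other being Kcnq1ot1 (log2 fold change −0.36, edgeR adjusted p = 0.692). With edgeR 0 of 2 were called and 1 had an unadjusted p below 0.05, DESeq2 also called 0, and 10.1% of all genes tested there were called, 6.68% higher and 3.43% lower.

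Whether the age difference itself differed between microglia and astroglia was tested with an interaction term. Of 23 Kcn genes tested with edgeR, 0 were called and 4 had an unadjusted p below 0.05, where 7.01% of all genes tested were called (with an age effect higher in microglia in 1.86% and lower in 5.15%), and without 3m replicate 1 there was 1 call. Depth in microglia was low, with 53392 to 329377 UMIs per library, and few Kcn genes could be tested there.

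Summed over all barcodes, whose cell make-up differed between the ages, 66 Kcn genes were tested, of which 19 were called higher and 19 lower at 3m. Among all genes 18.4% were called higher and 16.1% lower. The genes called higher included the oligodendrocyte genes Kcna1 (log2 fold change 9.07), Kcnk13 (6.77) and Kcnq3 (4.38), and also Kcnj10 (1.62). Those called lower included the vascular genes Kcng2 (−4.51), Kcnq1 (−4.12), Kcna5 (−3.76) and Kcnj8 (−1.60). In such sums fewer cells of a type and less RNA per cell cannot be told apart.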

How the data were processed

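Reads were mapped by the authors to the mouse genome (mm10) and UMIs counted per gene with Cell Ranger, and the deposited table holds these raw counts of 6 libraries, merged without normalization. Per the labels, Seurat 3.1.1 is named in the submitters' processing notes. Cells were retained by the authors above 500 genes and below 10% mitochondrial UMIs, and they deposited cluster names, sub-cluster numbers and a pseudotime score (computed with Slingshot, no unit), all used as given. How doublets were treated is not given in the sources used here, and no doublet caller was run.

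Counts were summed per library and cell group (Python 3.11.15, pandas 2.3.3), since cells are not replicates. Each comparison was fitted over all genes with edgeR 4.0.16 (R 4.3.3), using the quasi-likelihood test, TMM scaling, filterByExpr and two-sided Benjamini-Hochberg adjustment, and genes were called past an adjusted p of 0.05 and a log2 fold change of 1 in size. The procedure was also run on simulated counts with known changes, and its recovery of them is not given here. Pooled levels over clusters, sub-clusters and bins were given with the range over libraries with at least 20 cells. Floors are 3 UMIs, and floors and the 95% intervals of ratios cover counting error only. UMIs mark 1 end of an mRNA, so levels of genes were compared without division by length.

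The members, gene lists and tests were chosen with earlier results of these data known. Named were the 12 largest called changes in each direction whose libraries did not overlap, the 8 highest genes at either age, the 2 highest of each cell class, and a short list of well-known channels. Alternatives were other scaling (RLE or none), no filter on low counts, DESeq2 1.42.0, the replicate number as a block, each library left out, thinned counts, stricter cell filters (over 1000 genes, under 5% mitochondrial UMIs), and sums without cycling, multiciliated, non-telencephalic or oligodendrocyte marker-rich cells (over 1% of UMIs); the sums over non-telencephalic sub-clusters, with and without the last of these, were added after the data were seen. Promoter windows and start sites are from RefSeq (GRCm38.p6). Overlapping genes on opposite strands (Kcnmb4 and Kcnmb4os2, Kcnd3 and Kcnd3os, Kcnq1 and Kcnq1ot1) are uncertain. A few genes are counted in the totals but not reported here by name.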

Additional observations from a re-analysis of the deposited data

Results flagged for a closer look

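Flagged were genes with age differences of opposite sign in the telencephalic and the non-telencephalic astroglial sub-clusters. Every 3m library also had to lie on one side of every P3 library in one region and on the other side in the other. Of the 18 Kcn genes tested in both regions, 4 met this rule, and the share of all genes that met it was not computed. The difference between the regions was not tested for any of the 4. In the non-telencephalic fit Kcnd2 and Kcna6, low at P3, passed the filter on low counts through the 3m libraries, where they were high. Kcnd2 had a log2 fold change (3m over P3) of −2.80 in telencephalic and 3.99 in non-telencephalic sub-clusters. Kcna6, a delayed rectifier, had −1.38 and 2.66: its telencephalic level was 11.9, 9.81 and 13.1 CPM at P3 and 1.82, 5.16 and 4.83 CPM at 3m, and its non-telencephalic level 4.18, 3.74 and 5.42 CPM at P3 and 65.1, 16 and 30.4 CPM at 3m. Kcnip3 had −0.41 and 1.53: its telencephalic level was 64.5, 65.6 and 67.8 CPM at P3 and 37.4, 40.2 and 53.1 CPM at 3m, and its non-telencephalic level 30.9, 33.8 and 38.6 CPM at P3 and 97.7, 83.5 and 65.1 CPM at 3m. The telencephalic value of Kcnip3 was not called (edgeR adjusted p = 0.0655). Kcnj10 had −0.15, which was not called (edgeR adjusted p = 0.467), and 2.99. Its telencephalic libraries of the 2 ages were separated by a narrow margin (78.7 CPM in the lowest P3 library, 78.4 CPM in the highest 3m library). 3m replicate 1 enters these values with 17 non-telencephalic cells and 61425 UMIs. Their oligodendrocyte markers summed to 23753 CPM, against 3653 and 2930 CPM in the non-telencephalic cells of replicates 2 and 3 and 231 to 386 CPM in the telencephalic cells of 3m. Without cells rich in those markers the non-telencephalic values were 4.09 for Kcnd2, 1.59 for Kcnip3 and 2.98 for Kcnj10. In that fit 3m replicate 1 was left with 5 cells and 29008 UMIs, and 3m replicate 3 with 37 cells. Kcna6, which oligodendrocytes held at 64.4 CPM, was at 22.5 CPM in the adult cluster AST_3m_14, 35.4% of its level in ODC_2, and the part of oligodendrocyte RNA in its value was not tested. Kcnab2, an auxiliary subunit, met the same pattern of levels but was not tested in both regions: it had 84 UMIs at P3 and 2 at 3m in telencephalic sub-clusters, and 33 UMIs at P3 and 8 at 3m in non-telencephalic ones, where its level was 3.34, 2.60 and 1.81 CPM at P3 and 48.8, 4.57 and 4.34 CPM at 3m.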

How the results depend on the processing

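In astroglia, the counts of Kcn genes called higher and lower (14 and 10) became 7 and 6 with counts thinned to the smallest library, where 21 were tested, 12 and 6 in the non-telencephalic sub-clusters, and 10 and 6 there without cells rich in oligodendrocyte markers. They were 14 and 11 in the telencephalic ones, 10 and 7 under the stricter cell filter, 17 and 11 with no filter on low counts, 13 and 10 with no scaling (which put the median over all genes tested at −0.24 on the log2 scale), and 15 and 10 with DESeq2. The stricter cell filter left 3m replicate 1 with 12 cells and 50876 UMIs, and the number of Kcn genes it tested is not given here. Non-telencephalic sums without cells rich in oligodendrocyte markers held 5 cells of that library. Leaving out 1 library gave 10 to 15 higher and 6 to 11 lower, with 6 lower without each of the P3 libraries, where 23 Kcn genes passed the filter. In astroglia the share of all genes called was computed only for the main fit and the fits on all telencephalic or all non-telencephalic sub-clusters. Over all barcodes leaving out 1 library gave 17 to 22 higher and 17 to 19 lower, and for the microglial interaction 0 to 1 calls, the 1 call without 3m replicate 1. With the replicate number as a block, 15 were called higher and 10 lower in astroglia, 18 and 19 over all barcodes, and 0 in microglia. The correlations of same-numbered libraries' deviations in astroglia were 0.21, 0.10 and 0.04, not every library correlated best with its own number, and the numbers were not taken to pair the samples. Signs reversed for Kcnj10 (−0.15, telencephalic), Kcnd2 (3.99, non-telencephalic, and 4.09 there without cells rich in oligodendrocyte markers) and Kcnip3 (1.53 and 1.59 in these settings). Genes with no call also changed sign near 0: Kcnip3 ranged from −0.192 to 0.0942 when 1 library was left out, and was at 0.0071 with thinned counts, 0.13 under the stricter cell filter and 0.0018 without cells rich in oligodendrocyte markers, and Kcnq1ot1 was at −0.56 under the stricter cell filter. Of the other values of named genes under an alternative, 425 kept their direction and side of the threshold, 12 lost the call and 9 gained it. The losses include Kcnc4 (0.84) without 3m replicate 2, Kcnj16 (0.66) and Kcnk2 (−0.83) in telencephalic sub-clusters, Kcnd3os (−1.78) without 3m replicate 3, Kcnn3 with thinned counts (0.995), and Kcnd1, Kcnd3os, Kcnip1 and Kcnj6 under the stricter cell filter. The causes of these changes were not tested. Microglial fits without a P3 library or with thinned counts tested no Kcn gene. For the partner genes, RLE and no scaling gave 7 and 4 called higher and lower in place of 8 and 3.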
